A study of Drosophila melanogaster with 48 samples.

Results

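Ribosomal protein genes that exist as a pair of copies were followed in the Drosophila melanogaster testis while germ cells were driven out of their dividing state. The 10 genes form 5 pairs, RpL22 with RpL22-like, RpL10Ab with RpL10Aa, RpS28b with RpS28a, RpS5a with RpS5b and RpS19a with RpS19b. They were taken by name from 13555 genes in all files, of which 11029 appeared in total lysate and 11997 in polysome gradient pools, and all 10 appeared in both kinds. Every library came from bam-/-;hsBam animals that were raised at 22 °C, put in a 37 °C bath for 30 min at the pupal stage, and moved to 25 °C. Testes were taken 0, 16, 24, 32, 48 and 72 h after the shock for total lysate, with 2 libraries per time. At 24, 48 and 72 h a gradient was also pooled into free, 40S, 60S, 80S, 2-3 ribosome and 4+ ribosome groups, with 2 libraries per pool and time, which makes 48 libraries in all. No unshocked group and no wild-type group was analysed here, so time since the shock cannot be told apart from ageing or from recovery after heat. The labels call the libraries biological replicates and name no separate crosses, so p-values measure the spread between these libraries.

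Ribosomal proteins are usually needed in fixed proportion, and most are encoded by a single gene in flies. In the pairs studied here RpL22, RpL10Ab, RpS28b, RpS5a and RpS19a are the copies used in most tissues, and among their partners RpL22-like, RpS5b and RpS19b are known for expression in the germ line of testis or ovary. RpL22 and RpL10A proteins belong to the large subunit, where RpL10A builds the mobile stalk beside the tRNA exit site. RpS19 and RpS28 proteins belong to the small subunit, RpS28 close to where mRNA leaves the ribosome. The bam gene is needed for spermatogonia to stop dividing and become spermatocytes, and in these flies it is supplied only by a heat-shock copy, so that a pulse of heat lets germ cells enter the spermatocyte programme together.

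RpL10Ab and RpL10Aa are both autosomal, and the other pairs each join an X-linked and an autosomal gene. In dm6, RpL22 lies at chrX:762560-765130 (minus strand, 3 exons, 299 codons) and RpL22-like at chr2R:23246610-23247893 (minus strand, 2 exons, 312 codons). RpL10Ab lies at chr3L:11822851-11824211 (plus strand, 3 exons, 217 codons), and its partner RpL10Aa is a single-exon gene of 216 codons at chr3R:15037366-15038149 (plus strand). RpS28b lies at chrX:9554623-9555661 (plus strand, 2 exons, 65 codons), and its partner RpS28a is a single-exon gene of 64 codons at chr3R:30022345-30022648 (minus strand). RpS5a lies at chrX:17143588-17148264 (minus strand, 5 exons, 228 codons) and RpS5b at chr3R:14900432-14901563 (minus strand, 2 exons, 230 codons). RpS19a lies at chrX:16637894-16639249 (plus strand, 3 exons, 156 codons) and RpS19b at chr3R:23932729-23933530 (minus strand, 3 exons, 155 codons). RpL22, RpL10Ab and RpS5a carry small nucleolar RNA genes within their bounds, and RpL10Ab and RpS28b overlap a gene on the opposite strand. How reads that fit both copies were placed was not stated in the sources read.

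Each library counted RNA 3′ ends, so a read stands for the end of a molecule whatever its length. Levels are given as CPM, computed from listed reads after scaling by trimmed means, and a gene with no site at or above the lowest deposited count (20 reads in lysate, 10 in the gradient) is called unlisted. Lysate libraries held 12.04 to 20.67 M reads and gradient libraries 0.445 to 9.569 M. The 72 h 60S replicate 2 library held the 0.445 M and listed 1870 genes, and its log2 levels correlated with those of replicate 1 at r = 0.361. The 0 h lysate replicate 1 library listed no stop codon on the distal stretch of X that holds RpS5a and RpS19a, where 366 stop codons had at least 50 reads in every other lysate library. RpS5a and RpS19a were therefore taken as missing from that library, and their 0 h values rest on replicate 2 alone. The 0 h replicate 2 library lacked 97 stop codons of another X stretch, which holds none of the 10 genes. All 4 germ line markers looked up were listed at every time. Their sums were 102 and 116 CPM at 0 h, 145 and 158 at 16 h, 52.5 and 71.1 at 48 h, and 78.7 and 87.2 at 72 h.

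The copies showed 3 patterns over time in total lysate. RpL22, RpL10Ab, RpS28b and RpS19a, all in general use, fell, and RpS5b fell with them. RpL10Aa and RpS28a went from unlisted to listed late. RpL22-like, RpS19b and RpS5a passed the test at no time. RpL22 stood at 617 and 605 CPM at 0 h, 551 and 461 at 16 h, 472 and 379 at 24 h, 362 and 376 at 32 h, 288 and 283 at 48 h, and 327 and 252 at 72 h. Every later library was below both of 0 h. Its log2 change from 0 h was −1.10 (SE 0.178) at 48 h and −1.09 (SE 0.180) at 72 h, with adjusted p of 7.1e-04 and 6.5e-04 (limma, Benjamini-Hochberg over 10339 genes).

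**Figure D1:**
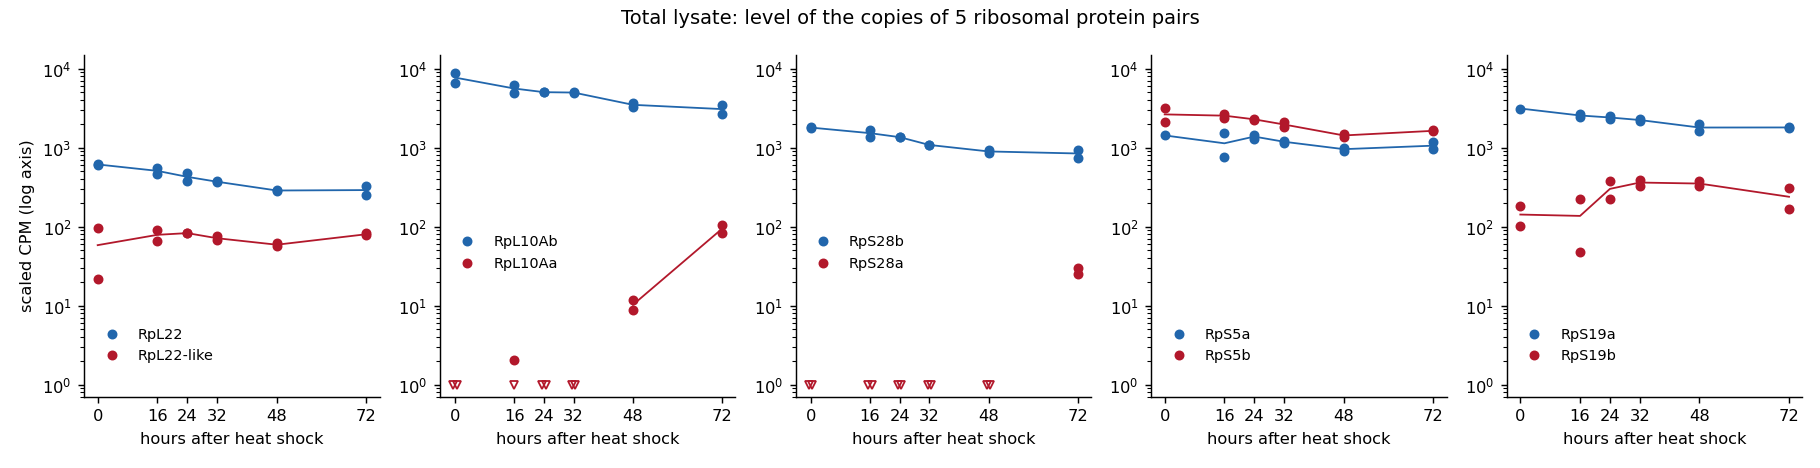
Scaled CPM (log axis) of the copies of each pair in the 12 lysate libraries against hours after heat shock. Points are libraries, lines join means of groups with no unlisted library, and open triangles mark unlisted libraries at an arbitrary height; RpL10Aa appears in both libraries from 48 h and RpS28a at 72 h alone, while RpL10Ab falls from 7682 to 3065 CPM.

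RpL10Ab was the most abundant of the 10 and went from 8835 and 6529 CPM at 0 h to 3646 and 3296 at 48 h and 3477 and 2653 at 72 h. The groups did not overlap, and the log2 change was −1.13 (SE 0.195, adjusted p = 1.0e-03, limma) at 48 h and −1.32 (SE 0.197, adjusted p = 3.1e-04) at 72 h. RpS28b held 1816 and 1763 CPM at 0 h, 1082 and 1075 at 32 h, 942 and 842 at 48 h, and 934 and 747 at 72 h. Again no later library reached a 0 h library, and the change at 72 h was −1.10 (SE 0.164, adjusted p = 3.1e-04, limma). RpS19a had 3116 CPM in the single 0 h library that covers it and 1830 and 1759 at 72 h, a change of −0.80 (SE 0.179, adjusted p = 5.7e-03, limma). With 1 library at 0 h, its spread was taken from the other groups, and the call ended with only the libraries compared in the fit (adjusted p = 0.140 at 48 h and 0.107 at 72 h). RpS5b, the germ line copy of its pair, went from 3152 and 2101 CPM at 0 h to 1356 and 1488 at 48 h and 1605 and 1650 at 72 h. Its change was −0.86 (SE 0.191, adjusted p = 4.8e-03, limma) at 48 h and −0.66 (SE 0.192, adjusted p = 0.017) at 72 h. With only the libraries compared, both calls ended (adjusted p = 0.090 and 0.146). The 72 h call for RpS5b also ended without 0 h replicate 1 (−0.37, adjusted p = 0.070) and without 72 h replicate 1 or 2 (adjusted p = 0.079 and 0.067).

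RpL10Aa was unlisted in 7 of 12 lysate libraries. It had 33 reads in 16 h replicate 1 (2.05 CPM), 191 and 233 reads at 48 h (11.8 and 8.68 CPM), and 1275 and 1429 reads at 72 h (82.6 and 105 CPM). Against the 20 reads that a single listed site needs, its mean was at least 6.07-fold higher at 48 h and at least 55.5-fold higher at 72 h than in the 0 h library with the highest such limit. RpS28a was listed in both libraries of 72 h, at 29.7 and 25.0 CPM, and in no other lysate library, which made it at least 16.2-fold higher than at 0 h by the same limit. Both genes entered the test only through the groups in which they were listed, and their 0 h values were entered ones, so no p is given for either and their calls add nothing to the listing itself.

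RpL22-like started from unequal 0 h libraries of 21.6 and 94.6 CPM and stayed between 56.6 and 91.4 CPM in the 10 later libraries. Its change at 72 h was 0.84 (SE 0.502, adjusted p = 0.198, limma), and it became 1.88 (adjusted p = 4.5e-04) without 0 h replicate 2. At 48 h the value turned from 0.40 to −0.68 (adjusted p = 0.031) without 0 h replicate 1. RpS19b also varied within times, with 100 and 183 CPM at 0 h, 47.2 and 225 at 16 h, 378 and 221 at 24 h, 328 and 393 at 32 h, 376 and 324 at 48 h, and 308 and 168 at 72 h. In replicate 1 of 0 h and of 16 h, the lower library of each time, all its reads ended 76 nt past the stop codon. In the other lysate libraries they ended at 132 nt. The 32 and 48 h libraries lay above both of 0 h, but the change at 48 h of 1.36 (SE 0.614) had an adjusted p of 0.092 (limma). RpS5a had 1423 CPM in its 0 h library, 753 and 1508 at 16 h, and 947 and 1165 at 72 h, and its 72 h change of −0.44 (SE 0.355) had an adjusted p of 0.343.

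By count, 0 of the 10 genes passed at 16 h and 24 h in limma, where 1.13% and 2.18% of all genes passed. At an unadjusted p under 0.05, 1 was lower at 16 h and 3 were lower at 24 h, and limma with a mean trend in place of weights called 0 at both times. Without 0 h replicate 2, 2 of them passed at 16 h and 3 at 24 h. At 32 h RpL22 and RpS28b fell, each by 0.73 on the log2 scale (adjusted p = 0.027 and 0.019), against 5.79% of all genes. Both calls ended without either 32 h library, RpL22 also ended without 0 h replicate 1 (adjusted p = 0.059), and 5 genes passed without 0 h replicate 2. At 48 and at 72 h 5 of 10 fell, against 15.6% and 12.9% of all genes, and with only the libraries compared in the fit RpS19a and RpS5b lost their calls at both times, which left 3. Of all genes 32.2% and 35.4% rose at these times, and the calls of RpL10Aa and RpS28a are not counted against that share, since their listing fixed them.

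Scaling decided part of this. With libraries scaled by their total in place of trimmed means, the median change of all genes from 0 h went from between −0.14 and 0.31 to between 0.33 and 1.01, and the share of calls that were higher went from between 47.9% and 73.3% to between 80.7% and 93.7%. Under that scaling the 5 falls at 72 h passed, while at 32 h the falls of RpL22 and RpS28b were lost and RpS19b was called higher at 2.00 (adjusted p = 0.048). At 48 h the falls of RpL22, RpS28b, RpS5b and RpS19a were lost, and RpS19b was called higher at 2.08 (adjusted p = 0.020).

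The single-copy ribosomal protein genes give the setting for these values. Of 66 in lysate, 29 fell at 32 h and 54 at both 48 and 72 h, and none rose. Their median log2 change was −1.05 at 48 h and −0.93 at 72 h, beside medians of 0.30 and 0.31 over all genes and −0.78 and −0.55 over the 10 paired genes. Those of the 10 genes include fitted values of RpL10Aa and RpS28a that rest on entered reads. With scaling by totals, 0 fell and 2 rose at 32 h, 19 fell and 1 rose at 48 h, and 49 fell and 0 rose at 72 h. The list of other duplicated ribosomal protein genes, drawn up by gene symbol, had 14 members in lysate, of which 6 fell at 72 h. RpL24-like, RpLP0-like and RpL7-like are on it by symbol alone, and none of them was called at 72 h. Also on it was RpS28-like, a further relative of RpS28b by name, unlisted in the 8 libraries up to 32 h and present at 12.8 and 7.64 CPM at 48 h and 86.5 and 91.9 CPM at 72 h.

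Markers of later germ cells moved with the same times. The summed level of 4 spermatid markers (dj, Mst77F, Mst84Db and betaTub85D) was 0 in both 0 h libraries, 1616 and 1496 CPM at 48 h, and 8978 and 9237 CPM at 72 h. It was 0 and 38.1 CPM at 16 h. Of 7 spermatocyte markers 5 were found by symbol (fest and kmg were not), with sums of 37.0 and 25.6 CPM at 0 h, 761 and 756 at 48 h, and 348 and 340 at 72 h. The lookup was by symbol alone, so a marker listed under another name would be missed. Markers of other tissues also differed, with 3 haemocyte genes summing to 273 and 215 CPM at 0 h, 6.17 and 6.44 at 48 h, and 62.7 and 51.8 at 72 h, and 2 of 3 accessory gland genes to 0 and 130 CPM at 0 h, 269 and 142 at 48 h, and 9.07 and 9.22 at 72 h (1 of the 3 was not listed). Sums of 4 cyst cell, 4 muscle and 4 fat body markers lay between 85.9 and 117, 161 and 307, and 755 and 989 CPM at 0 h, between 120 and 142, 338 and 394, and 534 and 767 CPM at 48 h, and between 102 and 103, 170 and 250, and 766 and 843 CPM at 72 h. At 16 and 24 h all 3 sums were above those of 0 h, between 173 and 280, 459 and 711, and 1739 and 2057 CPM. The part of these shifts in the changes of the paired genes was not tested, and fewer cells of a type and less RNA per cell cannot be told apart in whole testes.

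**Figure D2:**
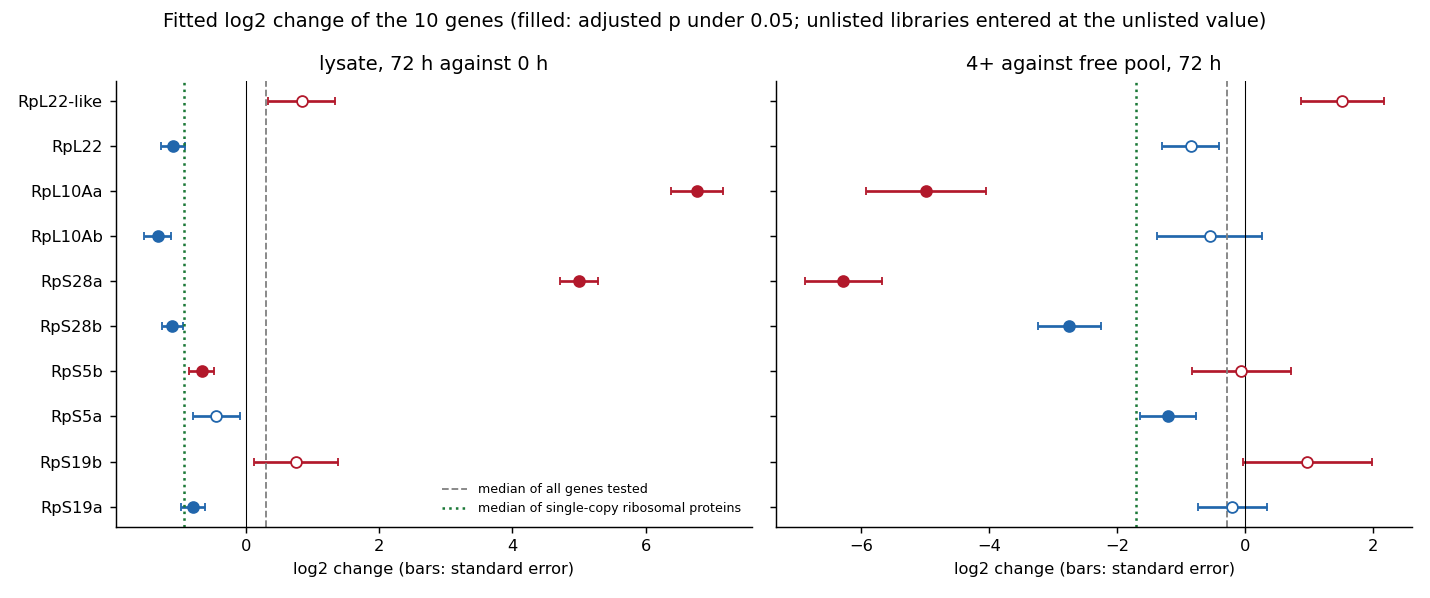
Fitted log2 change of the 10 genes in lysate at 72 h against 0 h (left) and in the 4+ pool against the free pool at 72 h (right), with standard errors; filled points passed an adjusted p of 0.05. Dashed and dotted lines are the medians of all genes and of single-copy ribosomal proteins, which stand at 0.31 and −0.93 on the left; fitted values of RpL10Aa and RpS28a on the left and of RpS28a on the right depend on the value given to unlisted libraries, and their filled points show no more than that listing.

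The balance between the copies of a pair was read within each library, where it does not depend on scaling. RpL22-like gave 3.38% and 13.5% of the pair's reads at 0 h, 10.6% and 16.5% at 16 h, 14.99% and 17.8% at 24 h, 17.2% and 15.2% at 32 h, 16.4% and 17.7% at 48 h, and 20.03% and 23.6% at 72 h. Both 72 h libraries were above all others, but among the 6 times the log2 ratio did not pass an exact permutation test (p = 0.101 over all 10395 arrangements of the libraries). The p was 0.010 without 0 h replicate 2, the library with 13.5%. RpS5b held more than its partner RpS5a in every library with both, between 57.6% and 78.1%, and the exact permutation p among times was 0.640. RpS19b gave 5.56% at 0 h (1 library), 1.75% and 8.44% at 16 h, 16.1% and 16.6% at 48 h, and 14.4% and 8.72% at 72 h. The 1.75% came from 16 h replicate 1, in which its reads all ended at 76 nt. Among times the exact permutation p was 0.209. Without 16 h replicate 2 that p was 0.027. RpL10Aa reached 0.32% and 0.26% of its pair at 48 h and 2.32% and 3.79% at 72 h, and RpS28a 3.09% and 3.23% at 72 h. These pairs had no test over time, since RpL10Aa was listed in 5 and RpS28a in 2 of 12 libraries. The 3 tests over times and the 11 over pools below have p-values that are not adjusted for their number.

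In the gradient, RNA in the free and 40S pools carries no complete ribosome, 80S holds a single one, and the 2-3 and 4+ pools hold mRNAs with several. RpL22-like made up more of its pair in every 2-3 and 4+ library than in any lighter library of the same time. At 24 h it held 8.32% and 7.83% of the pair's reads in the free pool, 4.33% and 7.69% in 40S, 6.67% and 3.19% in 60S, 9.98% and 10.8% in 80S, 14.6% and 20.6% in 2-3, and 28.5% and 39.4% in 4+. Both 4+ libraries lay above all others of that time, and the pools differed (exact permutation p = 0.0021). At 48 h the share was 8.65% and 6.39% in the free pool and 26.2% and 46.1% in 4+ (p = 0.026, exact permutation test). At 72 h it was 11.1% and 7.90% in the free pool, 19.4% and 33.2% in 2-3, and 32.5% and 37.2% in 4+ (p = 1.9e-04, exact permutation test, where 9.6e-05 is the smallest possible). The 48 h p was 0.119 with ranks, and lay between 0.053 and 0.095 without either 60S or 2-3 library, free replicate 2 or 4+ replicate 2. The 24 and 72 h results passed with each library left out in turn.

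**Figure D3:**
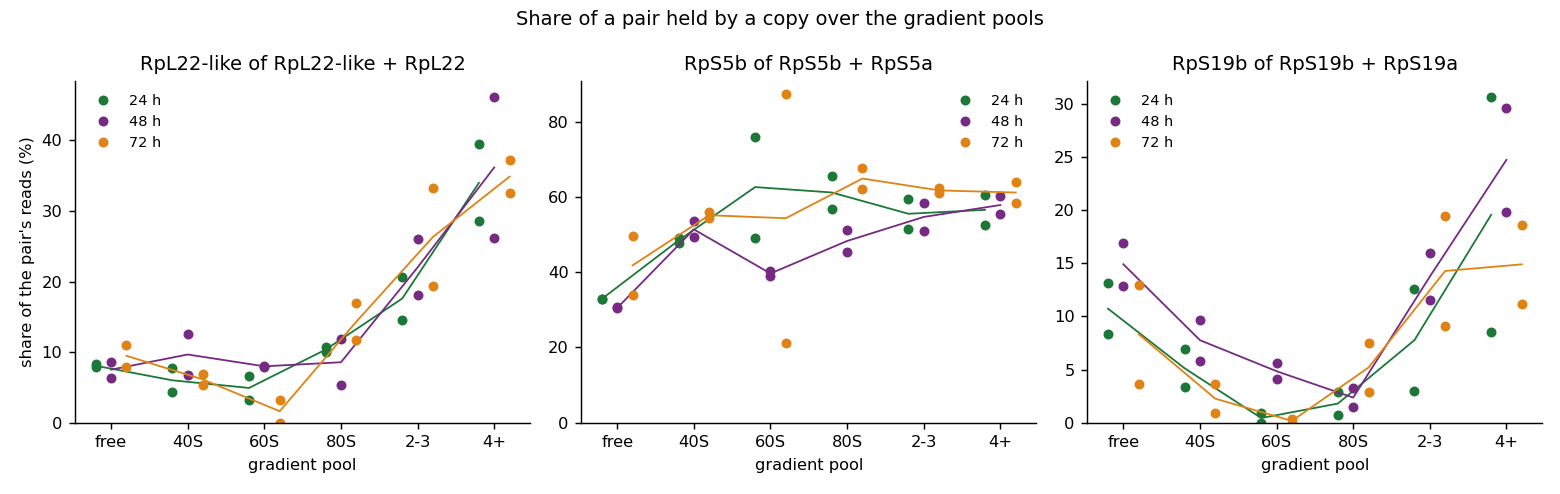
Share of the pair's reads (%) held by RpL22-like, RpS5b and RpS19b in each gradient pool at 24, 48 and 72 h. Points are libraries, an unlisted copy stands at 0, and lines join the means of 2; RpL22-like stands between 6.39% and 11.1% in the free libraries and between 26.2% and 46.1% in the 4+ libraries.

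RpS19b had its lowest shares in the 40S, 60S or 80S pools at each time. At 48 h it held 16.9% and 12.9% in the free pool, 5.84% and 9.69% in 40S, 4.08% and 5.61% in 60S, 1.44% and 3.29% in 80S, 15.9% and 11.5% in 2-3, and 19.8% and 29.6% in 4+. The 4+ libraries exceeded all others, the 80S libraries were below all others, and the exact permutation p was 2.9e-04. At 24 h the share was 8.33% and 13.1% in the free pool, 0.75% and 2.86% in 80S, and 8.49% and 30.6% in 4+ (p = 0.039, exact permutation test). At 72 h it was 3.69% and 13.0% in the free pool, 2.88% and 7.50% in 80S, and 11.2% and 18.6% in 4+ (p = 0.021, exact permutation test). The 24 h p lay between 0.096 and 0.162 with any library other than 60S replicate 1 left out. The 72 h p was 0.064 without the low-depth 60S replicate 2, 0.092 without 60S replicate 1, 0.054 without 4+ replicate 2, and 0.138 without both 60S libraries.

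At 24 and 48 h RpS5b was lowest in its pair in the free pool. It held 33.0% and 32.8% there at the first time against 60.6% and 52.5% in 4+, with 49.2% and 76.0% in the 60S libraries (exact permutation p = 0.094). That p was 0.0041 without 60S replicate 1 and 0.026 without 60S replicate 2. At 48 h its share was 30.6% and 30.3% in the free pool, 53.5% and 49.2% in 40S, 40.3% and 39.0% in 60S, 51.2% and 45.3% in 80S, 58.5% and 50.9% in 2-3, and 60.2% and 55.5% in 4+ (exact permutation p = 0.0027). Both free libraries were below all others. At 72 h it was 49.6% and 34.0% in the free pool and 63.9% and 58.4% in 4+, with 87.4% and 21.2% in the 60S libraries (p = 0.902, exact permutation test). Without both 60S libraries that p was 0.013, without 60S replicate 1 it was 0.0044, and without 60S replicate 2 it was 0.0012.

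RpL10Aa and RpS28a had their highest mean CPM in the free pool at 72 h. In the gradient, CPM give a gene's share of the reads of a pool. No amount of RNA per pool entered the scaling, so CPM do not show how molecules were spread over the pools. RpL10Aa stood at 360 and 200 CPM in the free pool, 235 and 105 in 40S, 85.8 CPM and unlisted in 60S, 23.1 and 23.6 in 80S, 3.10 and 7.39 in 2-3, and 8.49 and 8.39 in 4+. The free and 40S libraries were above every library of the 80S and heavier pools. Its partner RpL10Ab, in contrast, held 4281 and 3662 CPM in the free pool and 3196 and 2271 in 4+. RpL10Aa therefore gave 7.76% and 5.19% of the pair's reads in the free pool and 0.26% and 0.37% in 4+, and the pools differed (exact permutation p = 1.9e-04; at most 0.0028 with any library left out). The unlisted 60S library, with 139 RpL10Ab reads, was entered at 5 reads, a log2 ratio of −4.80 beside −5.32 in 60S replicate 1. At 48 h RpL10Aa was listed in 5 of 12 gradient libraries, at most 37.9 CPM in 40S replicate 1, and at 24 h in 3.

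RpS28a at 72 h had 89.8 and 42.9 CPM in the free pool, 9.85 and 8.54 in 40S, 9.89 CPM and unlisted in 60S, 3.98 and 7.09 in 80S, 3.36 and 2.62 in 2-3, and was unlisted in both 4+ libraries. Its free mean was at least 39.1-fold above the 10 reads that a site in the 4+ libraries needs to be listed. RpS28b at 72 h also fell off in the heaviest pool, from 2653 and 2331 CPM in the free pool and 3569 and 2482 in 80S to 556 and 247 in 4+. RpS28a gave 3.27% and 1.81% of its pair in the free pool and at most 0.37% in any other library of that time, and the exact permutation p among pools was 0.066. That p was 0.040 without 60S replicate 1 and 0.028 with unlisted libraries entered at 1 read. RpS28a was listed in 2 of 12 gradient libraries at 24 h and in 0 at 48 h. The reads at 24 h (69 in 4+ replicate 1 and 11 in 40S replicate 2) lay 499 and 333 nt past the stop codon, beyond the annotated 3′ end, so no level of RpS28a is read from them.

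**Figure D4:**
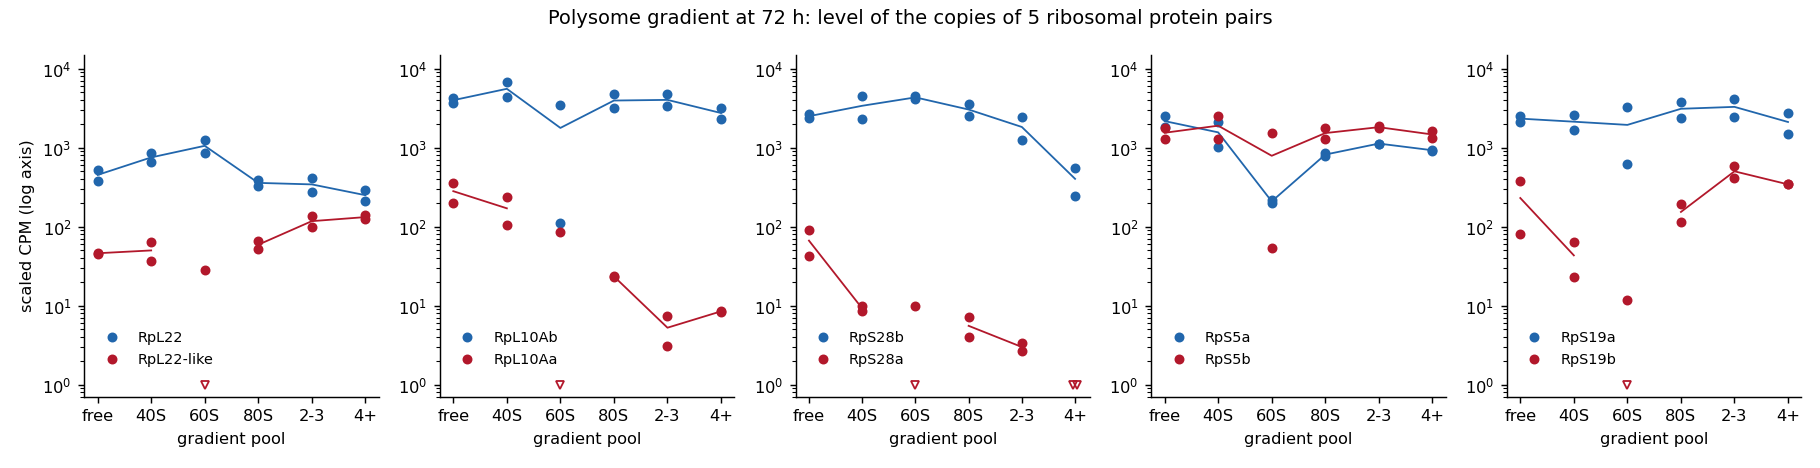
Scaled CPM (log axis) of the copies of each pair in the 6 gradient pools at 72 h. Points are the 2 libraries per pool, lines join means of pools with no unlisted library, and open triangles mark unlisted libraries at an arbitrary height; RpL10Aa falls from 360 and 200 CPM in the free pool to 8.49 and 8.39 in 4+, and RpS28a is unlisted in 4+.

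Levels in 4+ were tested against the free and the 80S pool in a fit over all 36 gradient libraries, and every call among the 10 genes was lower in 4+. Against the free pool, RpL22, RpS28b and RpS5a were lower at 24 h, 3 of 10 against 5.38% of 10777 genes tested. The same 3 were lower at 48 h, against 8.76% of all genes. RpL10Aa, RpS28b and RpS5a were lower at 72 h, against 20.1%. Against the 80S pool RpS28b was lower at 24, 48 and 72 h, where 2.93%, 2.47% and 5.67% of all genes were lower. Of 69 single-copy ribosomal protein genes, 15 (21.7%) were lower than in 80S at each of these times. Their median differences were −1.56, −1.51 and −1.18, so a lower level in 4+ than in 80S was not particular to RpS28b. RpS28a was called lower at 72 h against both pools, but its 4+ values were entered ones and it passed the listing filter only through lighter pools, so it is not counted. No member was called higher in 4+ at any time, although RpL22-like had 46.8 and 45.0 CPM in the free pool and 139 and 125 CPM in 4+ at 72 h, a log2 difference of 1.52 (SE 0.645, adjusted p = 0.084, limma). At an unadjusted p under 0.05, 1 of the 10 was higher against the free pool at 72 h and 0 at 24 and 48 h, and against 80S RpL22-like and RpS19b were higher at 24 and 48 h and none at 72 h, leaving out RpS28a at 24 h with its reads far past the stop codon. Limma with a mean trend called none higher. With only the libraries compared in the fit, RpL22-like was called higher at 72 h against the free pool (1.52, adjusted p = 0.0021) and 80S (1.17, adjusted p = 0.0080), and RpS19b against 80S at 48 h (2.18, adjusted p = 0.037) and 72 h (1.21, adjusted p = 0.0099).

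RpS28b was lower in 4+ at all 3 times. Its 24 h levels were 2687 and 3411 CPM in the free pool, 2825 and 3122 in 80S, 1410 and 1287 in 2-3, and 304 and 448 in 4+. The 4+ libraries lay below all others of that time. The log2 difference between 4+ and 80S was −3.01 (SE 0.488) at 24 h, −2.83 (SE 0.489) at 48 h and −3.01 (SE 0.488) at 72 h, with adjusted p of 4.9e-04, 8.7e-04 and 4.1e-04 (limma). RpS5a differed from its partner in the free pool. It had 3110 and 3627 CPM there at 24 h against 718 and 1237 in 80S and 955 and 1118 in 4+, while RpS5b had 1531 and 1773 in the free pool and 1469 and 1235 in 4+. RpS5a was lower in 4+ than in the free pool by 1.70 at 24 h, 1.96 at 48 h and 1.21 at 72 h on the log2 scale (adjusted p = 0.017, 0.0034 and 0.041, limma).

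Several of these calls rest on both libraries and on the scaling. The RpS5a call ended without any single one of the free or 4+ libraries at 24 h (adjusted p from 0.060 to 0.155) and at 72 h (0.075 to 0.225), and the 72 h call missed the threshold by limma with a mean trend (0.057). The RpL22 call of −1.65 at 24 h ended without 4+ replicate 1 or either free library, and its call of −1.75 at 48 h without either 4+ library or free replicate 2. RpL10Aa at 48 h was called lower in 4+ without the free replicate 2 library, in which it was unlisted. RpS28a at 24 h was called higher in 4+ without 4+ replicate 2, on the reads 499 nt past its stop codon. Without the low-depth 60S library in the shared spread, RpS19a was called lower in 4+ than in 80S at 24 and 48 h (−1.57 and −1.68, adjusted p = 3.8e-04 and 2.7e-04). In that fit RpL22-like was called higher in 4+ than in the free pool at 72 h (1.51, adjusted p = 0.032), RpL22 was called lower there, and RpL10Ab was called lower at 48 h. With scaling by totals the median difference of all genes between 4+ and the free or 80S pool went from between −0.55 and −0.11 to between −0.05 and 0.76. At 24 h the medians under trimmed means, −0.55 against free and −0.27 against 80S, equal the fitted values of RpS28-like. These come from reads entered for unlisted libraries, so such medians are not read as shifts in level. The share of calls that were higher went from between 6.99% and 24.4% to between 39.4% and 84.2%. Under it RpL22 was called lower than in the free pool at no time and RpS5a at 48 h alone, and RpL22-like was called higher in 4+ than in the free pool at 24, 48 and 72 h (1.66, 1.88 and 2.50, adjusted p = 0.035, 0.014 and 9.5e-04). Against 80S, RpL22-like at 24 and 48 h and RpS19b at 48 h were called higher under it. RpS28b against both pools at all 3 times, and RpL10Aa against the free pool at 72 h, were called lower under both.

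For comparison, of 69 single-copy ribosomal protein genes 30, 34 and 30 were lower in 4+ than in the free pool at 24, 48 and 72 h and none was higher. With scaling by totals 31, 31 and 21 were lower and 3, 0 and 4 higher. Their median differences were −1.98, −2.04 and −1.70, beside −0.55, −0.22 and −0.29 over all genes and −0.62, −1.01 and −0.70 over the 10 paired genes. The −0.55 at 24 h equals the fitted value of RpL10Aa, unlisted in both pools, so it reflects entered reads and library size. Medians over the 10 genes include entered values of RpL10Aa and RpS28a. RpS28-like at 72 h had 793 and 389 CPM in the free pool and 8.49 and 11.8 in 4+ (−5.77, SE 0.804, adjusted p = 5.6e-06, limma).

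Most of the genes ended at a single place. In lysate, RpL22 ended 165 nt past the stop codon in all 12 libraries, RpL10Ab at 62 nt, RpS5b at 95 nt and RpS28b at 303 nt, with between 99.65% and 100% of each gene's reads. RpS5a (115 nt) and RpS19a (119 nt) did so in the 11 libraries that cover them. RpL10Aa ended at 73 or 76 nt at 48 and 72 h, beside an annotated 3′ end at 76 nt, and RpS28a at 69 nt, beside an annotated 59 nt. Sites listed for a gene in the same library lay at least 56 nt apart, so shifts of a few bases between libraries are not read as different sites.

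In the gradient 2 of the broadly used genes had another most used position listed in some libraries. RpL22 was listed at 122 nt in place of 165 nt in 9 of 36 libraries. These were both 40S and both 60S libraries of 24 h, both 40S libraries and 60S replicate 1 of 72 h, 4+ replicate 1 of 24 h and 2-3 replicate 2 of 72 h. RpS28b had its most used site at 244 nt in place of 303 nt in 4 libraries, free replicate 1, both 40S libraries and 60S replicate 1 of 72 h, with 97.5%, 97.6%, 93.2% and 56.6% of its reads. A further RpS28b site at 43 nt was listed in 33 gradient libraries, with 2.92% of the gene's gradient reads, and in no lysate library. Sites listed for a gene in the same gradient library lay at least 59 nt apart. The 122 and 165 nt positions of RpL22 are closer than that and were never listed together, so they are not read as different sites. All of these are given as values, since the gradient sites were not tested.

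RpL22-like and RpS19b were the only members with a second lysate site that could be tested. RpL22-like ended mainly at 201 to 204 nt and at 101 nt. The nearer site held 27.6% and 4.92% of the pair of sites at 0 h, between 2.50% and 10.9% in the 8 libraries from 16 to 48 h, and 4.67% and 6.01% at 72 h. The log2 change of near over far site at 72 h was −1.28 (SE 0.777, adjusted p = 0.288, limma). RpS19b ended at 76 nt in all 1285 reads of 0 h replicate 1 and all 761 reads of 16 h replicate 1, and at 132 nt in all reads of the other 10 lysate libraries. These positions were never listed together in a lysate library. Each ratio therefore rests on 10 reads entered for the unlisted position, and its size is not read as a change in use. The split ran within 0 h and within 16 h, and the change at 72 h of −7.98 (SE 4.62) had an adjusted p of 0.262. So 0 of 2 genes passed in limma, and 0 at an unadjusted p under 0.05, where 23.4% of 3881 genes passed. Without 0 h replicate 2 both passed (adjusted p = 0.0071 for RpL22-like and 0.041 for RpS19b).

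The lysate profiles of the copies were compared with those of 4800 genes by Pearson correlation of log2 CPM over the 12 libraries, 11 for RpS5a and RpS19a, as a description without a test, since these genes share libraries, scaling and depth. The profile closest to RpL10Ab was that of RpS30, a small-subunit protein gene (r = 0.987), followed by RpL23 (0.974). RpL22 and RpS28b, from different pairs, were in each other's first 3 (r = 0.976), with RpS28b first for RpL22. RpS5b was closest to fend (0.978) and next to RpL13 (0.977). The late copies had no ribosomal protein gene among their first 3, with CG7841 (0.985), CG3061 (0.983) and ppl (0.982) for RpL10Aa, and Adk1 (0.975), Vap-33B (0.960) and Nup160 (0.948) for RpS28a. Their profiles rest mostly on entered values, since RpL10Aa was listed in 5 and RpS28a in 2 of 12 libraries. The genes compared had a mean log2 CPM of at least 4, which leaves out genes of low mean level. The absence of ribosomal protein genes there is therefore not read as a result. RpL22-like was closest to CG6045 (0.970), RpS19b to CG2656 (0.985), RpS5a to rictor (0.932) and RpS19a to Hexo2 (0.976).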

How the data were processed

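QuantSeq 3′ FWD libraries were made from bam-/-;hsBam testes, and Bowtie 0.12.8 and dm6 are named in the submitters' processing notes. The deposited files pack 3′ end positions and read numbers of each stop codon in a single text column, so their values are no plain count and edgeR, named in the plan, was not used. Gradient keys matched dm6 stop codons for all 4 plus-strand members and for 0 of the 6 on the minus strand. Gradient distances of minus-strand genes were therefore measured from the annotated dm6 stop codon. Lysate positions match on neither strand, and are given as distances from the stop codon. What else the authors did to the reads was not stated in the sources read.

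Reads were summed per gene in Python 3.11.15. A gene entered the tests if 1 or more groups listed it in both libraries. Levels were compared in limma 3.58.1 (R 4.3.3), with voom weights, robust moderation and all libraries of a kind sharing the spread, and unlisted libraries entered at 10 reads (lysate) or 5 (gradient). Trimmed-mean factors were 0.724 to 1.30 in lysate and 0.514 to 2.83 in the gradient. Pair ratios were tested by exact permutation of the one-way F among groups, and only where the copy was listed in most libraries, a rule set after the data were seen. Site choice was tested on log2(near/far) in limma with read weights. The adjusted p threshold was 0.05. The tests were tried on simulated data. The plan named all 10 genes, the first 3 by likeness, and 2 lists of other ribosomal protein genes. The members, lists and markers were chosen with earlier results of these data known. Some items are not reported here.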

Additional observations from a re-analysis of the deposited data

How the results depend on the processing

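Over the alternatives, 1209 of 1295 single-gene level results stayed on the same side of the threshold. Another 40 newly passed, 43 no longer passed and 3 reversed. A reversal was counted only where either result passed, so changes of sign among results that did not pass are within the 1209. The RpS19b change at 16 h, for example, ran from −1.52 to 0.74 over the libraries left out. Of 229 pair ratio tests 195 stayed on their side (12 newly passed, 22 no longer), as did 12 of 14 site results. The reversals were RpL22-like at 48 h without 0 h replicate 1 (−0.68, against 1.45 without replicate 2), and RpS19a at 48 and 72 h with the missing X stretch entered as unlisted (5.25 and 5.26), where the entry itself sets the 0 h level. That alternative and those on the low-depth 60S library were chosen after seeing the data. With scaling by totals, 1 of the 10 genes was called at 32 h and 3 at 48 h in lysate, and 2 at 24 h and 3 at 48 h for 4+ against 80S. With only the libraries compared in the fit, 0 were called at 32 h, RpS19a and RpS5b lost their calls at 48 and 72 h, and 3, 5 and 5 genes were called against 80S at 24, 48 and 72 h. Against 80S, 2 and 3 were called at 24 and 48 h without the low-depth library in the spread, and 1 at 72 h under a stricter listing filter. Leaving out each library in turn gave 0 to 2, 0 to 3, 0 to 5, 6 to 7 and 6 to 7 called genes at the 5 lysate times, 1 to 3, 2 to 3 and 3 to 3 for 4+ against free, 1 to 2, 1 to 1 and 1 to 1 against 80S, and 0 to 2 for site choice. The counts in this paragraph include RpL10Aa and RpS28a, although their listing fixed calls that are not counted above. In lysate this holds for RpL10Aa at 48 h and for both genes at 72 h, and in the gradient for RpS28a. Those calls therefore add nothing to how far the counts hold. The cause of the shifts in these counts was not tested.

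For the pair ratios over time, the exact permutation p ran from 0.0105 to 0.222 for RpL22-like and from 0.0269 to 0.349 for RpS19b over the libraries left out, and was 0.0471 for RpS19b with ranks. Over pools it ran from 0.0041 to 0.326 (RpS5b) and 0.0134 to 0.162 (RpS19b) at 24 h, 0.0223 to 0.0948 (RpL22-like) at 48 h, and 0.0398 to 0.0884 (RpS28a), 0.0012 to 0.92 (RpS5b) and 0.0194 to 0.0918 (RpS19b) at 72 h. With ranks, RpL22-like at 48 h had 0.119. With unlisted libraries entered at 1 read or just under the lowest listed count, RpS28a at 72 h had 0.0278 and 0.0397. Without both 72 h 60S libraries, RpS5b had 0.0127 and RpS19b 0.138.

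The labels do not say that a replicate number marks a shared cross or day, and deviations of same-numbered libraries from group means correlated above 0.1 in 5 of 15 lysate group pairs (highest 0.620) and 43 of 153 gradient pairs (highest 0.471), so the numbers were not taken as pairs, although some groups deviated together. The replicate block changed the call of 1 pair ratio, RpL22-like over time (exact permutation p = 0.0194), and added RpL10Ab at 32 h to the level calls.

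Over all genes the number called ranged from 6 to 1158 at 16 h (117 as reported), 7 to 1952 at 24 h (225), 278 to 2794 at 32 h (1411), 3021 to 5510 at 48 h (4939) and 3198 to 5443 at 72 h (4999). For 4+ against free it ranged from 184 to 1847 (698), 321 to 2383 (1169) and 1589 to 4938 (2870) at 24, 48 and 72 h, and against 80S from 148 to 1242 (347), 94 to 1275 (286) and 159 to 3339 (709). RpS5a and RpS19a have no 0 h value without 0 h replicate 2. Copies below 20 reads in lysate or 10 in the gradient were not detectable.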
